A study of Mus musculus with 6 samples.

Results

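Ovarian carcinomas recurrently carry mutations in a small set of genes, and 8 of them were followed here in normal mouse ovarian surface epithelium, the outer lining of the ovary. The genes were Trp53, Brca1, Brca2, Rb1, Nf1, Pik3ca, Apc and Arid1a. Members were the probe sets of the expression table whose only gene symbol in the platform annotation was one of these names. That rule found 8 probe sets for 7 of the 8 genes, among 41345 probe sets and 22180 named genes in all, with 2 probe sets for Rb1 and 1 for each of the others. Trp53 was not analysed here, and 2 probe sets paired with Rb1 and a further gene were not used.

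The cells came from Lgr5-eGFP-CreERT2 females between 8 and 12 weeks old, in which EGFP and a tamoxifen-inducible Cre are driven by the locus of Lgr5, a receptor that amplifies Wnt signals and marks stem cells in several epithelia. Surface epithelium was sorted into an Lgr5-EGFP-high and an Lgr5-EGFP-low population, both of this genotype and with no treatment. There were 3 arrays per population, each from material pooled over 8 mice. The design text calls the 3 technical replicates, so p-values reflect differences among arrays of pooled material and say nothing of the spread among mice. Fluorescence reports the Lgr5 locus only, and the labels give no second marker of the sort.

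Most of these genes restrain growth or guard the genome. Brca1 and Brca2 proteins direct the repair of double-strand breaks by homologous recombination, Rb1 encodes the retinoblastoma protein that holds E2F factors in check before DNA synthesis, and Nf1 encodes neurofibromin, which switches Ras off. Apc is a component of the complex that destroys beta-catenin, and Arid1a is a DNA-binding subunit of the SWI/SNF chromatin remodeller. Pik3ca, the catalytic subunit of phosphoinositide 3-kinase, is the oncogene of the set, activated in tumours by mutation.

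In the deposited table the 6 columns hold only 4 independent dimensions. EGFP-high replicate 2 was the mean of EGFP-high replicates 1 and 3 to within 7e-05, and EGFP-low replicate 1 was likewise a combination of other columns, to within 0.000125. Columns were therefore treated as 3 array sets inferred from these relations and in no label: high 1 with low 1, high 3 with low 2 and low 3, and high 2 alone. Deviations from the group means summed to 0 within each of these sets, to within 1e-04 over all probe sets, which is the form that values take once a shift per set is removed. Tests used limma across 22180 genes with group and array set as terms, which leaves 2 residual degrees of freedom, and a call required an adjusted p under 0.05. Lgr5 itself read 8.996, 8.97 and 8.94 on the EGFP-high arrays, against 7.84, 7.76 and 8.01 on the EGFP-low arrays (log2 values). Since the sort used this locus, the 1.10 difference is a check of the labels only. With an adjusted p of 0.751 (limma; 0.0151 with group as the only term) even this gene missed the threshold, so a gene without a call is not shown to be equal in the populations. The 15 surface epithelium markers, among them keratins and mesothelin, were read in both populations and summed, as log2 of summed linear values, to between 13.68 and 13.71 on the EGFP-high arrays and between 13.44 and 13.47 on the EGFP-low arrays.

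In both populations 5 of the 7 genes, Rb1, Nf1, Pik3ca, Apc and Arid1a, read well above the dim end of the arrays. Olfactory receptor genes, which are not known to work in this tissue, served as a gauge of dim signal. The 95th percentile of their 1108 probe sets lay between 3.802 and 3.88 on the EGFP-high arrays and between 3.92 and 4.03 on the EGFP-low arrays. All probe sets of these 5 genes exceeded it on all 6 arrays, at means over the arrays of 7.58 for Nf1, 7.36 for Arid1a, 6.77 and 6.34 for the Rb1 pair, 6.71 for Pik3ca and 5.46 for Apc. Brightness also depends on the probes, so these values do not rank the genes by transcript number. Brca1 and Brca2 sat at the edge of the gauge, with means of 3.97 and 3.92. Each exceeded the percentile on 3 of 3 EGFP-high arrays and on 0 of 3 EGFP-low arrays. The percentile was taken on each array and was higher on the EGFP-low ones. On low 3, Brca1 at 3.93 and Brca2 at 3.95 exceeded the percentile of every EGFP-high array. The split therefore does not show that either gene is absent from EGFP-low cells.

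**Figure D1:**
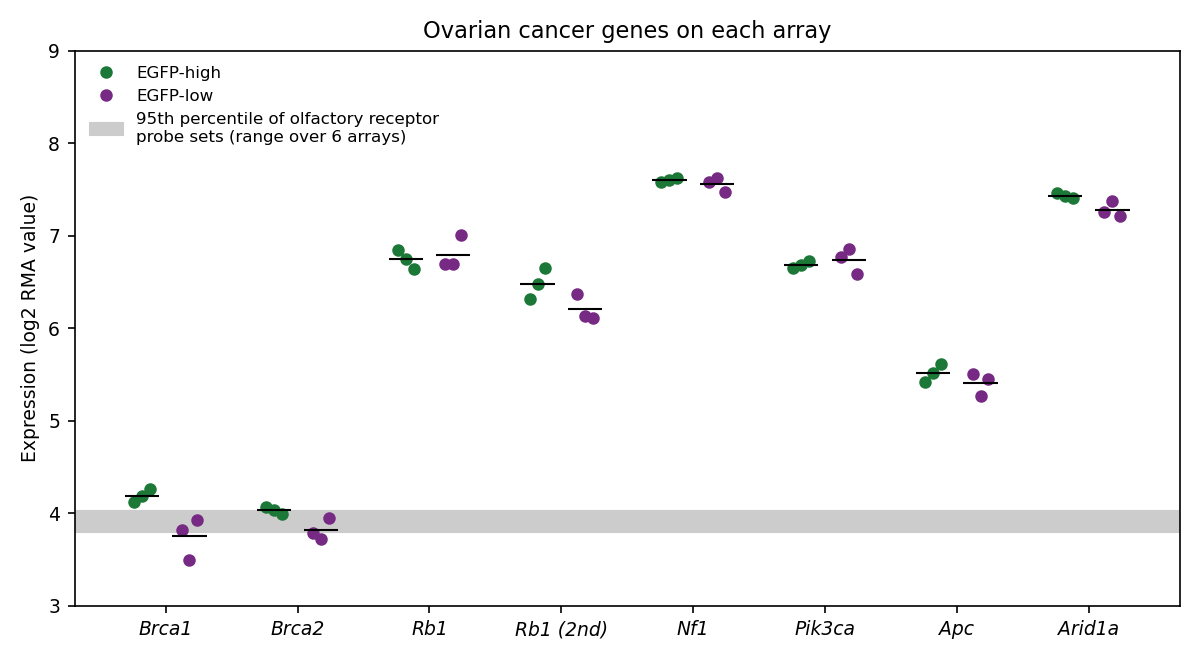
Log2 RMA value (vertical axis) of each probe set of the ovarian cancer genes, with 1 point per array, EGFP-high left of EGFP-low, and black bars at group means; the grey band is the range over 6 arrays of the 95th percentile of olfactory receptor probe sets. Brca1 and Brca2 lie around the band with EGFP-high above EGFP-low, while the other genes lie well above it and, apart from Arid1a, overlap between populations.

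None of the 7 genes passed the adjusted test between EGFP-high and EGFP-low cells. Limma called 0 of 7 (adjusted p from 0.852 for Brca1 to 0.985 for Nf1), where 0.00451% of all genes were called, namely Cyp11a1 alone. At an unadjusted p under 0.05 the count was also 0 of 7, against 5.92% of all genes. With group as the only term, limma called 0 of 7 as well (adjusted p from 0.0893 to 0.80), against 6.67% of all genes, and 2 of 7 had an unadjusted p under 0.05, against 26.8%. That second fit counts 4 residual degrees of freedom where the columns support 2. The 95% limits of all 7 genes held 0, and their half-widths of 0.46 to 0.52 on the log2 scale set what could be seen. On a linear scale the limits ran from 0.679-fold at the lowest, for Rb1, to 1.95-fold at the highest, for Brca1. The differences of Rb1, Nf1, Pik3ca and Apc changed sign with another scaling or with 1 array left out. The authors' deposited table of 1134 probe sets at 1.5-fold or more contained 0 of the 8 probe sets.

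Brca1 had the widest separation. Its probe set read 4.12, 4.19 and 4.26 on the EGFP-high arrays, against 3.82, 3.499 and 3.93 on the EGFP-low arrays. Every EGFP-high array lay above every EGFP-low array. The means were 4.19 ± 0.073 in EGFP-high and 3.75 ± 0.22 in EGFP-low cells (SD, n = 3 arrays each, of which high 2 is the mean of the other highs and so lowers that SD), a difference of 0.44 with 95% limits of −0.079 and 0.96 (limma adjusted p = 0.852). Within the inferred array sets the difference was 0.30 for high 1 minus low 1 and 0.55 for high 3 minus the average of lows 2 and 3. Of all 22180 genes, 11.7% differed by at least as much in either direction.

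Brca2, which acts at resected DNA ends during repair, read 4.06, 4.03 and 3.995 on the EGFP-high arrays, against 3.78, 3.72 and 3.95 on the EGFP-low arrays. The populations again did not overlap, although high 3 and low 3 were close. The difference was 0.21 (−0.26 to 0.68), with 0.28 and 0.16 within the array sets. Groups also did not overlap, with EGFP-high above, for Arid1a, so that 3 of the 7 genes had this order and 0 the opposite one. Over all genes 33.2% did not overlap, 19.3% with EGFP-high above and 13.9% with EGFP-high below. The dim gauge was lower on the EGFP-high arrays than on the EGFP-low arrays, and its bearing on the differences of Brca1 and Brca2 was not tested.

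The 250 bases before the RefSeq start of Brca1 and Brca2 are shown because these genes of 1 repair pathway had the same order of populations, and because Brca2 holds a word of the E2F factors that Rb1 restrains. Both are from build GRCm38.p6, read 5′ to 3′ on the strand of the gene. The Brca1 window is chr11:101551956-101552205 on the minus strand and the Brca2 window chr5:150522371-150522620 on the plus strand. Capitals mark matches, on either strand, to the searched words: the E2F words TTTCCCGC, TTTCGCGC, TTTGCCGC and TTTGGCGC, the cAMP response element TGACGTCA, its core TGACG, the CCAAT box CCAAT and the GC box GGGCGG.
Brca1: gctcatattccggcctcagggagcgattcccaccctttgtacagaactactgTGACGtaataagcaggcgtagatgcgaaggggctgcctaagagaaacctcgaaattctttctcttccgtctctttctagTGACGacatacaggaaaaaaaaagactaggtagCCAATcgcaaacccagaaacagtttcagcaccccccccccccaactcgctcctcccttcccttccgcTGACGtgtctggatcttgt
Brca2: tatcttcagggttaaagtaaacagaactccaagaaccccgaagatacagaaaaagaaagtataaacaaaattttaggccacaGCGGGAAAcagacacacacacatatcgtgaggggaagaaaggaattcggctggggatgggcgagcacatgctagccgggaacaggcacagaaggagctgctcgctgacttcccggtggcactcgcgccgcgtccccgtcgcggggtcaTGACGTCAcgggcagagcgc

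The Brca1 window held 3 copies of TGACG, which begin 198, 119 and 19 bases before the start, and 1 CCAAT box, 86 bases before it. The Brca2 window held 1 E2F word on the opposite strand, GCGGGAAA, at 168 bases, and 1 full TGACGTCA at 20 bases, which overlaps both of its TGACG matches. Over 32851 RefSeq windows of the same length, 1.86% held an E2F word, 1.55% held TGACGTCA, 17.8% held TGACG, 33.8% held CCAAT and 32.7% held GGGCGG. Windows were also at hand for Nf1, with no match, for Pik3ca, with 1 GC box, and for the 2 starts of Arid1a, with 7 GC boxes and 1 E2F word before the downstream start and 1 GC box before the upstream start. That E2F word overlaps a GC box. A match is a run of letters and does not show binding.

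Partners of the Brca proteins in homologous recombination had mostly positive differences and no call. Of 26 measured genes of the list, 21 had a positive difference (53.8% of all genes did), with a median of 0.14 against 0.025 over all genes, and 0 passed the test in either direction (smallest limma adjusted p = 0.772). At an unadjusted p under 0.05 there were 3 of 26, all positive, Brip1, Chek2 and Fancd2, against 5.92% of all genes. With group as the only term limma called those 3, against 6.67%. The list's mean level was between 4.66 and 4.67 on the EGFP-high arrays and between 4.44 and 4.52 on the EGFP-low arrays. The EGFP-high arrays lay wholly above for 6 of the 26 genes and wholly below for 2, against 19.3% and 13.9% of all genes. When a trend of the difference with brightness was subtracted, the list's median was 0.062.

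Brip1, a helicase that binds Brca1, had the largest difference of the list, 0.87 (0.34 to 1.40, limma adjusted p = 0.772). It read 3.32, 3.14 and 2.96 on the EGFP-high arrays, against 2.08, 2.26 and 2.44 on the EGFP-low arrays, so that all 6 values lay below the dim gauge. The checkpoint kinase Chek2 read 4.53, 4.44 and 4.34 on the EGFP-high arrays, against 3.65, 3.53 and 4.06 on the EGFP-low arrays, a difference of 0.69 (0.14 to 1.24). Fancd2, the Fanconi anaemia protein that marks stalled forks, differed by 0.51 (0.025 to 1.0002). It read below the dim gauge on 3 of the 6 arrays, and Chek2 did so on 2. Bard1, the obligate partner of Brca1 in its ubiquitin ligase, differed by 0.48 (−0.15 to 1.11), with EGFP-low replicate 2, at 2.83, well under the others. Bard1 and the next gene, like Brip1, read below the dim gauge on all 6 arrays. Palb2, the bridge between Brca1 and Brca2, went the other way at −0.21 (−0.69 to 0.28).

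**Figure D2:**
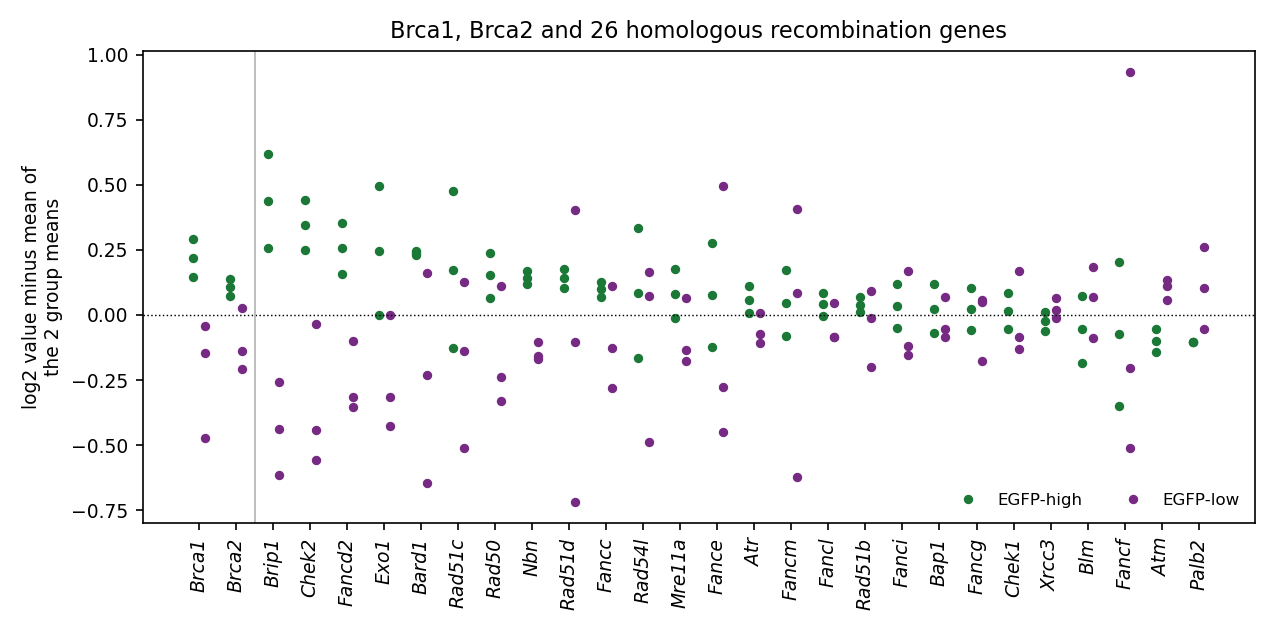
Log2 value of each array minus the mean of the group means (vertical axis) for Brca1, Brca2 and the 26 measured homologous recombination genes, ordered by their difference, with EGFP-high points left of EGFP-low points. Brip1, Chek2 and Fancd2 have the largest differences, and read below the dim gauge on 6, 2 and 3 of the 6 arrays. Palb2 and Atm lie wholly lower in EGFP-high.

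Rb1 gave 2 answers from its 2 probe sets. The brighter one read 6.85, 6.74 and 6.64 on the EGFP-high arrays, against 6.69, 6.69 and 7.01 on the EGFP-low arrays. Its populations overlapped, with low 3 the highest of the 6, and the difference was −0.053 (−0.56 to 0.45). The second probe set read 6.31, 6.48 and 6.65 on the EGFP-high arrays, against 6.37, 6.13 and 6.11 on the EGFP-low arrays. These groups overlapped as well, and their difference was 0.27 (−0.32 to 0.87 in the fit over all probe sets). Within the array sets the brighter probe set gave 0.15 and −0.21, and the second −0.062 and 0.53, with opposite signs between probe sets in both.

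Genes around Rb1 had a median difference of 0.18 over 23 measured members, 17 of them positive, against 53.8% of all genes. Limma called 0 (smallest adjusted p = 0.816), with 1 of 23 at an unadjusted p under 0.05, against 5.92%. The EGFP-high arrays lay wholly above for 10 of the 23 and wholly below for 0, against 19.3% and 13.9% of all genes. E2f7 and E2f8, which are among those 10, read below the dim gauge on all 6 arrays, as did E2f2 of the list. The 1 gene at an unadjusted p under 0.05 was Cdkn2c, an inhibitor of the cyclin D kinases, at 0.59 (0.094 to 1.08). Cdkn2c was also called with group as the only term (limma adjusted p = 0.0351). Of the retinoblastoma relatives, Rbl2 differed by 0.46 (−0.079 to 1.002), with 6.62, 6.59 and 6.56 on the EGFP-high arrays, against 6.10, 6.41 and 5.88 on the EGFP-low arrays, and Rbl1 by 0.28 (−0.33 to 0.90). E2f1 differed by 0.18, the cyclin Ccnd1 by 0.16 and its kinase Cdk4 by 0.16. Ccne1, the cyclin E gene amplified in a share of ovarian carcinomas, was −0.25 (−0.80 to 0.31). All of these intervals other than that of Cdkn2c held 0.

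Nf1 was the steadiest of the 7 genes. It read 7.58, 7.601 and 7.62 on the EGFP-high arrays, against 7.58, 7.63 and 7.48 on the EGFP-low arrays, and the populations overlapped. The difference of 0.038 had limits of −0.42 and 0.50, or 0.747-fold to 1.41-fold. Its pooled SD within groups, 0.0565, was smaller than that of all but 10.1% of genes. Within the array sets the differences were 0.00052 and 0.067.

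The Ras and MAP kinase list had a median of 0.13 over 18 measured genes, 15 of them positive, with 0 called by limma in either fit and 0 at an unadjusted p under 0.05. Once the brightness trend was subtracted the median was 0.0012. Nras, the Ras gene mutated in some low-grade tumours, differed by 0.12 (−0.36 to 0.60), and Rasa1, another brake on Ras, by 0.097 (−0.40 to 0.60).

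Pik3ca read 6.65, 6.69 and 6.72 on the EGFP-high arrays, against 6.77, 6.85 and 6.59 on the EGFP-low arrays. The EGFP-high values fell inside the range of the EGFP-low ones. The difference was −0.048 (−0.52 to 0.43), with −0.12 and 0.0025 within the array sets. In its pathway list 11 of 18 measured genes were positive, against 53.8% of all genes, with a median of 0.038. Limma called 0, and 0 had an unadjusted p under 0.05, against 5.92% of all genes. That median was −0.0053 without high 1 or low 1, which are the same fit, 0.086 without low 2, and −0.0090 with the brightness trend subtracted. With group as the only term limma called 1 of the 18, against 6.67% of all genes. That gene was the mTOR activator Rheb, at 0.37 (0.20 to 0.54 in that fit, limma adjusted p = 0.0382). With the array-set term the limits of Rheb were −0.087 and 0.83 (limma adjusted p = 0.854). The sister catalytic subunit Pik3cb was −0.36 (−0.89 to 0.16), with every EGFP-high array below every EGFP-low array. The regulatory subunit Pik3r1 was −0.22 (−0.74 to 0.30), and the downstream kinase Akt1 was 0.10 (−0.45 to 0.66).

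Apc read 5.42, 5.52 and 5.61 on the EGFP-high arrays, against 5.50, 5.27 and 5.45 on the EGFP-low arrays. The populations overlapped, and high 1 lay below both low 1 and low 3. The difference was 0.11 (−0.37 to 0.59), with −0.079 and 0.25 within the array sets. Of the 11 measured genes of the beta-catenin destruction complex and its target, 8 were positive, against 53.8% of all genes, with a median of 0.17. Limma called 0, and 0 had an unadjusted p under 0.05, against 5.92% of all genes. Without high replicate 3 that median was 0.020. Axin2, a scaffold that is itself a Wnt target, was called with group as the only term (limma adjusted p = 0.0277) but not with the array-set term (0.841), at 0.45 (−0.0097 to 0.91). The sister scaffold Axin1 differed by 0.19 (−0.29 to 0.67) and the kinase Gsk3b by 0.27 (−0.34 to 0.89). Csnk1a1, the priming kinase, and Ctnnb1, which encodes beta-catenin, were each at 0.024, with limits of −0.43 and 0.48 and of −0.51 and 0.56.

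Arid1a read 7.46, 7.43 and 7.41 on the EGFP-high arrays, against 7.26, 7.38 and 7.21 on the EGFP-low arrays. The populations did not overlap, with high 3 and low 2 close together. The difference was 0.15 (−0.31 to 0.62), or 1.11-fold, with 0.20 and 0.12 within the array sets. Arid1b, the alternative subunit that takes its place in the complex, differed by 0.28 (−0.19 to 0.75) and also did not overlap. Of 21 measured SWI/SNF genes 16 were positive, against 53.8% of all genes, with a median of 0.063, and limma called 0. At an unadjusted p under 0.05 there was 1, Dpf3, against 5.92% of all genes. The list's median was 0.12 without high 1, low 1 or low 2, and −0.045 with the brightness trend subtracted. Smarcb1, a core subunit, was called with group as the only term (limma adjusted p = 0.0341) but not with the array-set term (0.851): it read 7.49, 7.47 and 7.45 on the EGFP-high arrays, against 7.04, 7.15 and 6.998 on the EGFP-low arrays, a difference of 0.41 (−0.053 to 0.87). The ATPase Smarca4 was −0.040 (−0.51 to 0.43) and the scaffold Smarcc1 0.078 (−0.45 to 0.61). Dpf3, an alternative subunit, had the largest difference of any pathway gene at −1.52 (−2.42 to −0.62, limma adjusted p = 0.751), and was singled out after its values were seen. On 2 of the 6 arrays, high 1 and high 2, Dpf3 read below the dim gauge.

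**Figure D3:**
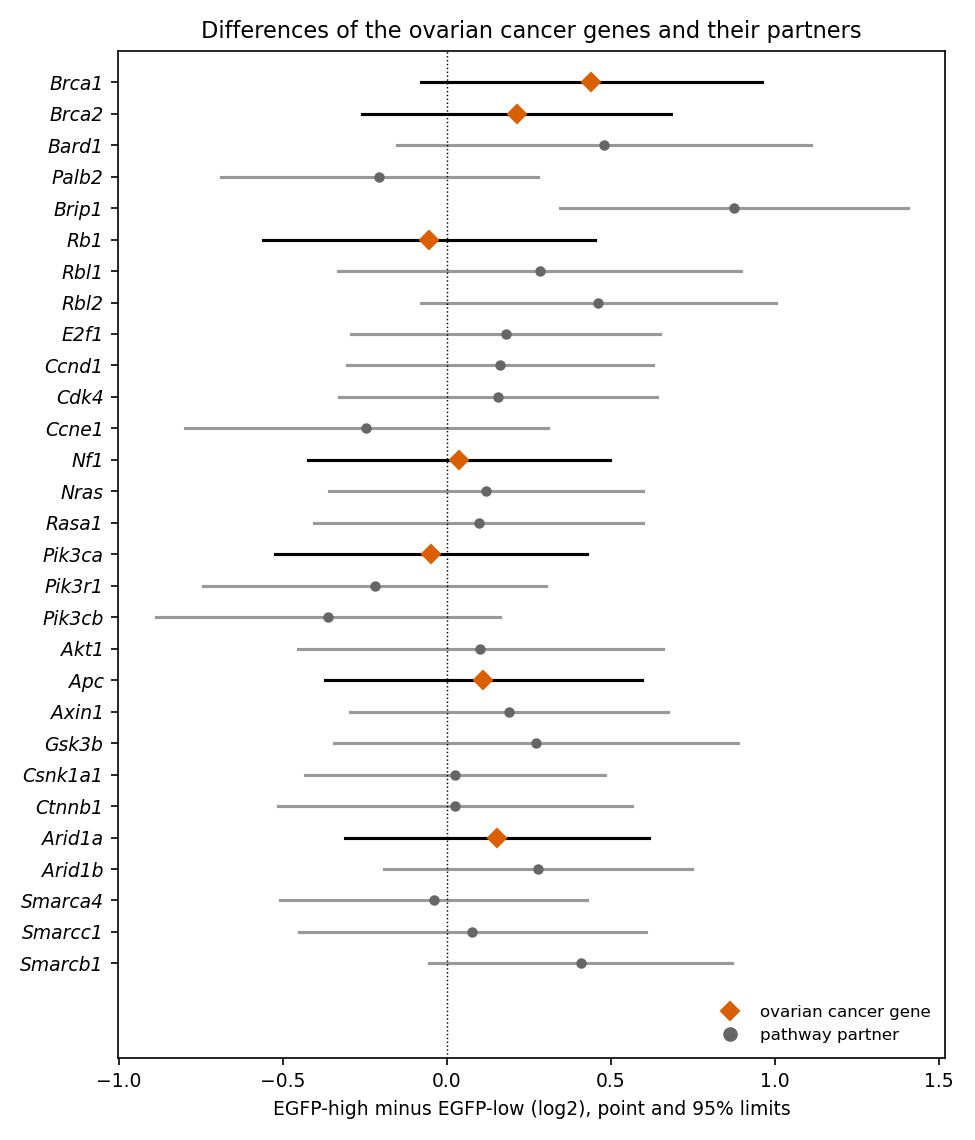
EGFP-high minus EGFP-low on the log2 scale (horizontal axis) with 95% limits from limma with the array-set term, for the 7 ovarian cancer genes (diamonds) and their fixed pathway partners (circles). All 7 intervals of the cancer genes cross 0, and among the partners shown Brip1 has an interval wholly above 0.

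Although Trp53 was not analysed here, 21 genes of its pathway were. Their median was −0.073, with 10 positive (53.8% of all genes were) and 11 negative, and limma called 0. At an unadjusted p under 0.05 there was 1, the polo-like kinase Plk2 at −0.52 (−1.03 to −0.0086), against 5.92% of all genes. Without low replicate 2 the list's median was 0.063. The ubiquitin ligase Mdm2, which is both regulator and target of p53, differed by −0.17 (−0.68 to 0.33), its relative Mdm4 by −0.081 (−0.59 to 0.43), and the cell cycle inhibitor Cdkn1a, a classic target, by 0.29 (−0.26 to 0.84). Among 16 further measured genes altered in ovarian tumours the median was −0.019, with 8 positive and 8 negative. Limma called 0 of the 16. At an unadjusted p under 0.05 there were 2, Fat3 and the granulosa cell factor Foxl2, against 5.92% of all genes. Foxl2 was −0.65 (−1.20 to −0.089) and read below the dim gauge on 2 of the 6 arrays. Myc was −0.35 (−1.07 to 0.38), the receptor Erbb2 0.0019 (−0.77 to 0.77), the transcription factor Mecom, below the dim gauge on all 6 arrays, 0.23 (−0.24 to 0.70) and the transcriptional kinase Cdk12 0.36 (−0.27 to 0.99). The atypical cadherin Fat3 was −0.65 (−1.11 to −0.19) and was called with group as the only term (limma adjusted p = 0.0193), at levels of 2.62 to 2.68 in EGFP-high and 3.25 to 3.38 in EGFP-low cells, below the dim gauge.

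**Figure D4:**
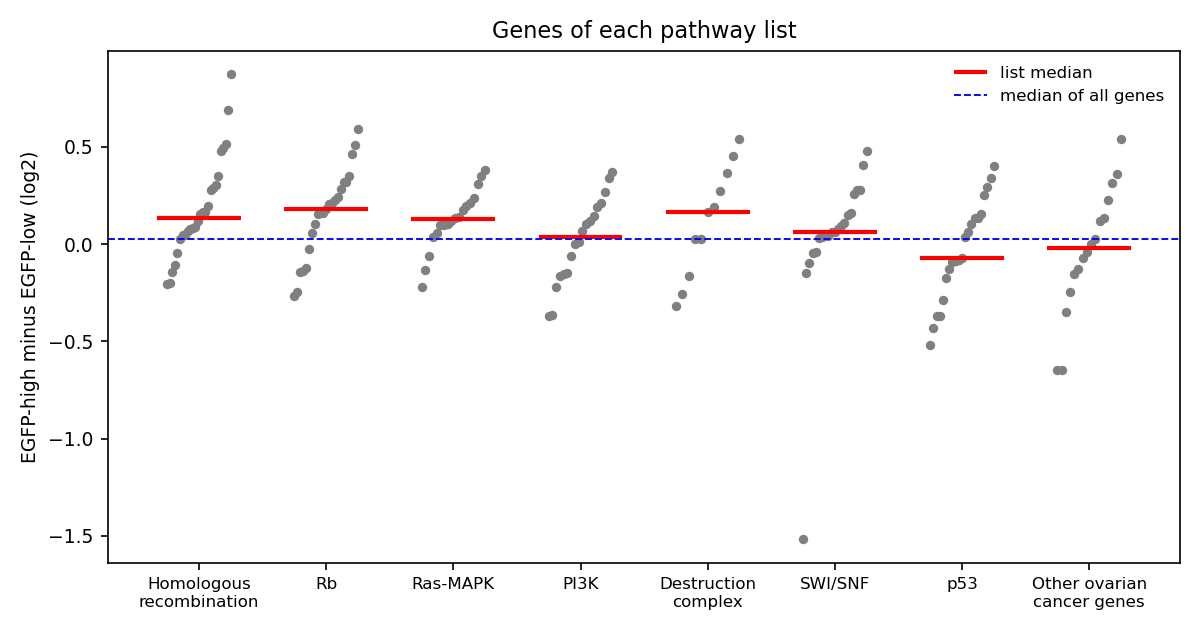
EGFP-high minus EGFP-low on the log2 scale (vertical axis) for each measured gene of 8 pathway lists, with list medians in red and the median of all genes dashed. Medians run from −0.073 for the p53 list to 0.18 for the Rb list, and the lowest point is Dpf3 at −1.52.

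Over all lists 147 genes were measured, 102 of them positive (69.4%, against 53.8% of all genes), and 0 passed the test with the array-set term. The 53.8% was not matched for brightness. The median difference of the 147 genes was 0.10, against 0.025 over all genes. With genes below the median brightness left out, that median over all genes was 0.097. With group as the only term limma called 8 of the 147, 7 higher and 1 lower, against 3.90% higher and 2.77% lower over all genes. Array profiles of the 7 genes were also matched to these 147 genes by the mean absolute difference of their deviations over the 6 arrays. The nearest were Cdkn2d for Brca1 (0.0462), E2f7 for Brca2 (0.0214), Bcl7a for Rb1 (0.0109), Tsc2 for Nf1 (0.0164), Csmd3 for Pik3ca (0.0427), Mtor for Apc (0.0415) and Pdpk1 for Arid1a (0.0153). Between 4 genes, for Rb1, and 425 genes, for Pik3ca, of the whole table were at least as near, counting the named gene.

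Summed markers of other ovarian cells did not overlap between the populations for any list but the endothelial one, and 1 of their genes passed the test. Leukocyte markers had 11 of 12 genes negative and summed to between 7.29 and 7.40 on the EGFP-high arrays, against 7.92 to 9.23 on the EGFP-low arrays. Stromal markers had 8 of 9 negative and summed to between 9.33 and 9.35 in EGFP-high, against 9.60 to 10.10 in EGFP-low. Theca and luteal markers, 4 measured of 7 with 2 negative and 2 positive, summed to between 9.14 and 9.20 in EGFP-high, against 9.62 to 10.08 in EGFP-low. Cyp11a1, a steroid enzyme of that list, was the single gene of the table that fell by the test, by 4.74 (limma adjusted p = 0.014). Star, which carries cholesterol into mitochondria, differed by 0.33 (−0.12 to 0.79) and Cyp17a1, an androgen enzyme, by 0.044 (−0.48 to 0.57). Granulosa markers, 2 positive and 6 negative, summed to 9.14 to 9.22 in EGFP-high and 9.27 to 9.46 in EGFP-low. Amhr2, the brightest of them and so the one with most weight in that sum, was positive at 0.28 (−0.24 to 0.81). The median difference of the granulosa list was −0.79. Endothelial markers, 5 positive and 4 negative, summed to 8.60 to 8.84 in EGFP-high and 8.46 to 8.61 in EGFP-low. Oocyte markers, 4 positive and 5 negative, summed to 6.33 to 6.39 in EGFP-high and 6.51 to 6.57 in EGFP-low. The 2 oviduct markers, both negative, summed to 4.29 to 4.41 in EGFP-high and 4.53 to 4.696 in EGFP-low. The 2 erythroid markers, both negative, summed to 4.74 to 4.78 in EGFP-high and 4.79 to 5.07 in EGFP-low. Per-array medians averaged 3.24 for oocyte, 3.42 for endothelial, 3.49 for oviduct and 3.64 for erythroid markers, below the dim gauge. Leukocyte markers averaged 3.83, inside the range of the gauge on the EGFP-high arrays (3.802 to 3.88) and below it on the EGFP-low arrays (3.92 to 4.03). That gauge was itself lower on the EGFP-high arrays. Marker readings are log2 array values without a true zero, and in bulk samples fewer cells of a type and less RNA per cell cannot be told apart. The part of these cells in the values of the ovarian cancer genes was not tested.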

How the data were processed

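The authors deposited log2 expression values of 41345 probe sets on 6 arrays (Affymetrix Mouse Gene ST 2.0 type). Affymetrix Expression Console and RMA are named in the submitters' processing notes, and their genome build is not given in the sources used here. RMA shrinks dim differences, which bears on Brca1 and Brca2. A table of linear ratio values of high over low was deposited as well, limited to 1.5-fold or more, used for membership only. For genes with several probe sets the one with the highest mean was tested. EGFP-high minus EGFP-low was fitted with limma 3.58.1 in R 4.3.3 (lmFit, eBayes, two-sided, Benjamini-Hochberg over 22180 genes), with an array-set term. No filter or further normalization was applied. Promoter windows came from RefSeq (GRCm38.p6). Precision is limited by the number of arrays. Per-array sums of markers are log2 of summed linear values.

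The genes, lists and tests were chosen with earlier results of these data known. Named genes were all 7 members, fixed pathway partners, Lgr5 and Cyp11a1, and for each member its nearest pathway gene. Genes at an unadjusted p under 0.05 or called by group alone were named after their values were seen. Alternatives were the model, the normalization, the brightness filter and trend, the probe set rule, and each array left out. The array sets were inferred from the relations among columns and not from replicate numbers. Deviations of same-numbered arrays correlated at −1, −0.0065 and −0.295, in replicate order. These correlations cannot decide whether replicate numbers pair the arrays. High 1 and low 1 form an inferred set whose deviations sum to 0, which fixes the −1. Deviations of high 2 had an SD of 2.91e-06, too small for its correlation to be read. The remaining same-numbered arrays share an inferred set with low 2. Columns of per-sample values without a sample numbered 0. Some genes of the lists are not reported here.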

Additional observations from a re-analysis of the deposited data

How the results depend on the processing

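Across 15 alternatives, limma called 0 of the 7 genes in every one (0 of the 5 left when genes below the median brightness were dropped, which removed Brca1 and Brca2). Changes of model, prior or testing universe cannot move a difference, nor can leaving out high 2, and leaving out high 1 or low 1 is the same fit. In the 7 distinct other values that remained, Brca1 ran from 0.30 to 0.55, Brca2 from 0.16 to 0.28 and Arid1a from 0.023 to 0.21. The signs of the others turned under some alternatives, and the cause was not tested. With arrays centred on their medians Rb1 was 0.0026 and Pik3ca 0.0079. Nf1 was −0.034 with a further quantile normalization and −0.094 with the brightness trend subtracted, and Rb1 was 0.11 as the mean of its probe sets. Leaving out single arrays gave −0.21 to 0.15 for Rb1, −0.0044 to 0.072 for Nf1, −0.12 to 0.0090 for Pik3ca and −0.079 to 0.25 for Apc. The sign turned without high 3 or low 3 for Rb1, without low 3 for Nf1, without high 3 for Apc, and without high 1, low 1 or low 2 for Pik3ca. The counts of members and of pathway genes past the threshold were 0 without any single array (lowest 0, highest 0). Without high 2 the estimates are those of the main fit, and without any other array 1 residual degree of freedom is left. These counts of 0 are therefore weak evidence of stability. With group as the only term 8 pathway genes were called, against 0. Over all genes the call count was 1 with the array-set term, 1479 with group only, 4 with the replicate block, 0 when all probe sets were tested or averaged, 23 without high replicate 3 and 3 without low replicate 3. With the replicate block the members' smallest adjusted p was 0.257 and 0 were called; it changed no member's call. Vomeronasal receptors as the dim gauge gave the same 6 probe sets above it on every array. Between 10 and 15 of 15 alternatives left each list's median within 1 SD of the array means. Those 15 include changes of model, prior or testing universe and the fit without high 2, none of which can move a median. The lowest count was that of the SWI/SNF list, whose median moved further in 5 alternatives.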
